A study of Mus musculus with 7 samples.

Results

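Inhibin, activin, follistatin and AMH genes were followed through mouse ovary development from sex determination to the first follicles. The set held 8 of the 31053 genes of the count matrices, taken by symbol: the inhibin alpha subunit gene Inha, the activin subunit genes Inhba and Inhbb, the activin-binding protein gene Fst, the hormone gene Amh and its receptor gene Amhr2, and the activin type II receptor genes Acvr2a and Acvr2b. All 8 were matched, each to a single row. RNA was measured by droplet single-cell sequencing in 7 libraries of untreated wild-type C57BL/6J mice, prenatal gonads at E11.5, ovaries at E12.5, E14.5, E16.5 and E18.5, and ovaries at P1 and P5 after birth. Every age was 1 library, so the ages have no replicate, and age and library cannot be told apart. The labels speak of individual ovaries and the methods of pooled gonads, so single animals cannot be separated. Dissociation in trypsin took 20 min at E11.5 and E12.5 and 80 min at P1 and P5, so it changed with age too. Cells of both sexes were present at E11.5, by their Y-linked and Xist UMIs.

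Activins are dimers of beta subunits that bind a type II receptor (Acvr2a or Acvr2b), which recruits a type I receptor that phosphorylates Smad2 and Smad3. Inhibins pair the alpha subunit with a beta subunit and oppose activin at the same receptors with the help of Tgfbr3 (betaglycan), and follistatin binds activin and keeps it from its receptors. AMH, the hormone with which the fetal testis removes the Mullerian duct, acts through its own type II receptor, and in the ovary it is made by granulosa cells of growing follicles.

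Inha is on chromosome 1 at 75507077 to 75510366 (plus strand), Inhba on chromosome 13 at 16011851 to 16031621 (plus), and Inhbb on chromosome 1 at 119415465 to 119422248 (minus). Fst is on chromosome 13 at 114452290 to 114458951 (minus), Amh on chromosome 10 at 80805243 to 80807648 (plus), and Amhr2 on chromosome 15 at 102445367 to 102454633 (plus). Acvr2a is on chromosome 2 at 48814109 to 48903269 and Acvr2b on chromosome 9 at 119402118 to 119434995, both on the plus strand. All are protein-coding genes of GENCODE on GRCm38, the build that mm10 names.

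The promoters of Inhba, Inhbb and Amhr2 are shown because Inhba was read mostly in stroma, and Inhbb and Amhr2 together in pregranulosa cells. Each sequence is the 250 bases before the RefSeq start on GRCm38.p6, 5′ to 3′ on the strand of the gene. Capitals mark matches to 5 motifs searched on both strands, none overlapping another in the windows shown, which were the nuclear receptor half-site AGGTCA, the cyclic AMP response element TGACGTCA, the GATA-type site AGATAA, the GC box GGGCGG and the TATA-type box TATAAA. These windows lay at chr13:16011601-16011850 (plus), chr1:119422249-119422498 (minus) and chr15:102445117-102445366 (plus), upstream of the annotated exons.
Inhba: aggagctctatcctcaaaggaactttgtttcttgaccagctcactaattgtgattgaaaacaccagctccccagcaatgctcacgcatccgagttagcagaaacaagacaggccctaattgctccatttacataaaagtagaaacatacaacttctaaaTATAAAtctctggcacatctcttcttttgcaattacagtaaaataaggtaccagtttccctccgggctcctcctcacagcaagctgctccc
Inhbb: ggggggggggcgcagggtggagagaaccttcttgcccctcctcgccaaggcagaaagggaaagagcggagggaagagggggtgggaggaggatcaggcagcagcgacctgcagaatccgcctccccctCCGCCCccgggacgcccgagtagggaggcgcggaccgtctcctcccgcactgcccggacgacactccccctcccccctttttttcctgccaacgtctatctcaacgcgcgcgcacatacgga
Amhr2: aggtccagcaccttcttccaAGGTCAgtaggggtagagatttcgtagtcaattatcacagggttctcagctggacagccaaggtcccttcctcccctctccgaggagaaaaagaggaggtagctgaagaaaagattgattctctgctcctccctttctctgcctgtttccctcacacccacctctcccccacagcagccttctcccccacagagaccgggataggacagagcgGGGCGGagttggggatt
Of the 8 genes, 6 had a RefSeq promoter entry, and 4 of these lay outside annotated exons. In those 4, TATAAA was found once, starting 91 bases before the Inhba start, and it was present in 12.4% of all 32851 promoters of this length. AGGTCA was found in the Amhr2 window, 230 bases before the start, against 14.0% of all promoters. GGGCGG was found in 3 of the 4 (Inhbb, Amhr2 and Acvr2a), against 32.7% of all. The cyclic AMP element and the GATA-type site, present in 1.55 and 9.99% of all promoters, had no match in the 4 windows. GC content was 43.2% for Inhba, 68.0% for Inhbb and 55.2% for Amhr2. A match describes letters only, and binding was not measured.

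Cells with at least 200 genes were kept, between 3848 and 11060 in a library, with medians of 6349 to 11060 UMIs (unique molecular identifiers, each counting 1 captured RNA molecule). Pregranulosa cells, the supporting cells that will form follicle walls, were taken as those with at least 3 UMIs of Wnt6 and Kitl together. They were split into Gng13-low (at most 1 Gng13 UMI), the side of the bipotential pathway, and Gng13-high (at least 3), the side of the epithelial pathway. The split rests on 1 gene and is not a lineage label. At P5 it gave 1311 low and 142 high cells, and whether the low cells there include cells of the epithelial pathway was not tested. From E11.5 to P5 there were 161, 1004, 3846, 3045, 1384, 1294 and 1531 pregranulosa cells. At E11.5 the name stands only for the gate. The paper regards Wnt6-positive cells of that age as likely bipotential precursors, and 38.5% of the gate had a Y-linked UMI. Cells with Sox9 UMIs were left out at E12.5 but not at E11.5, so steps between these libraries also hold differences in sex and filter. Stroma (at least 2 Nr2f2 UMIs) had 460 to 4229 cells, germ cells (at least 3 Ddx4 and Dazl UMIs) 59 to 2421 from E12.5 on, and surface epithelium (at least 2 Upk3b UMIs) 163, 66 and 115 at E11.5, E12.5 and E14.5. Classes of fewer than 50 cells were not used. Cells passing the gates of several classes, 4.06 to 17.1% of a library, were left out. This fell heavily on the Upk3b gate, which 613, 486, 461, 569, 109, 158 and 208 cells passed from E11.5 to P5. Of these, 163, 66, 115, 27, 15, 31 and 34 stayed, with the Sox9 filter applied too at E12.5. The epithelium used here is thus a small remainder of its gate. Which other gates the removed cells passed was not counted.

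The gates were checked against genes they did not use. Lgr5 was 42.6 to 252 CPM (UMIs per 1000000 UMIs of the cells counted) in Gng13-high and 3.27 to 29.4 CPM in Gng13-low cells from E12.5 on. The supporting gene Foxl2 was higher in Gng13-low cells in all 6 of these libraries. In the stroma gate Foxl2 was 7.09 CPM at E14.5 and 169 CPM at P5, against 392 CPM in Gng13-low cells of P5, and its part in the stroma values of the members was not tested. The red cell gene Hba-a1 was read in every class, at 303 to 1268 CPM in germ cells from E12.5 on, and the part of such free RNA in low values of the members was not tested. Between 0 and 131 barcodes were shared by a pair of libraries, at most 1.62% of the smaller. The intervals are 95% exact intervals and cover counting error only. An overlap of intervals does not mean equal levels, since the interval of the ratio can still exclude no difference.

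The E12.5 library held cells with testis features. Cells with at least 2 UMIs of the testis gene Sox9 were left out there, 190 of those passing the pregranulosa gate. Of these, 43.7% had a UMI of a Y-linked gene. The 190 also had Foxl2 at 36.7 CPM, read in 26.3% of them, and Fst at 450.1 CPM. Kept cells without a Y-linked UMI had Foxl2 at 73.0 CPM, read in 39.0%. Whether the 190 include ovarian supporting cells was not tested. Of the 1004 cells kept, 26 still had a Y-linked UMI, and these held 229 of the 251 Amh UMIs. Amh was 618 CPM (540.3 to 703) in these 26 cells and 1.93 CPM (1.21 to 2.93) in the other 978. The 26 were mixed, since Amh was read in 12 of them and Cst9 in 13. Of the 12 kept cells with at least 3 Amh UMIs, 10 had a Y-linked UMI. Leaving out Y-positive cells thus did not remove every such cell, and whether others with testis features remain among the 978 was not tested. The Sertoli genes Dhh and Cst9 were 111 and 958 CPM in the 26 and 0.967 and 9.67 CPM in the 978. Fst was lower in the 26, at 64.7 CPM against 856 CPM, while Inha and Inhbb were higher, at 219 against 72.0 CPM and 151 against 48.6 CPM. Amh values of E12.5, and the Inha and Inhbb ratios of the sides there, are therefore given with and without these cells.

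Inha, Inhbb, Fst and Amhr2 were higher in pregranulosa cells than in stroma in every library. The difference was at least 2-fold in 6 of 6 libraries from E12.5 to P5, which held for 4.99% of all 10512 genes tested. None of the 8 was at least 2-fold lower in all 6, against 5.31% of all genes. Inhba went the other way, with more RNA in stroma than in pregranulosa cells in each of the 6 libraries. The receptor genes Acvr2a and Acvr2b were read in every class, and Acvr2b was higher in germ cells than in pregranulosa cells from E16.5 to P1. The median log2 ratio of the 8 genes was 3.05, against 0.11 for all genes tested. Keeping cells that passed another gate lowered the mean log2 ratios, for Inha from 3.98 to 2.50 and for Fst from 5.89 to 3.05. A cell passing both gates then counted in both classes, which by itself pulls the ratio toward no difference.

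**Figure D1:**
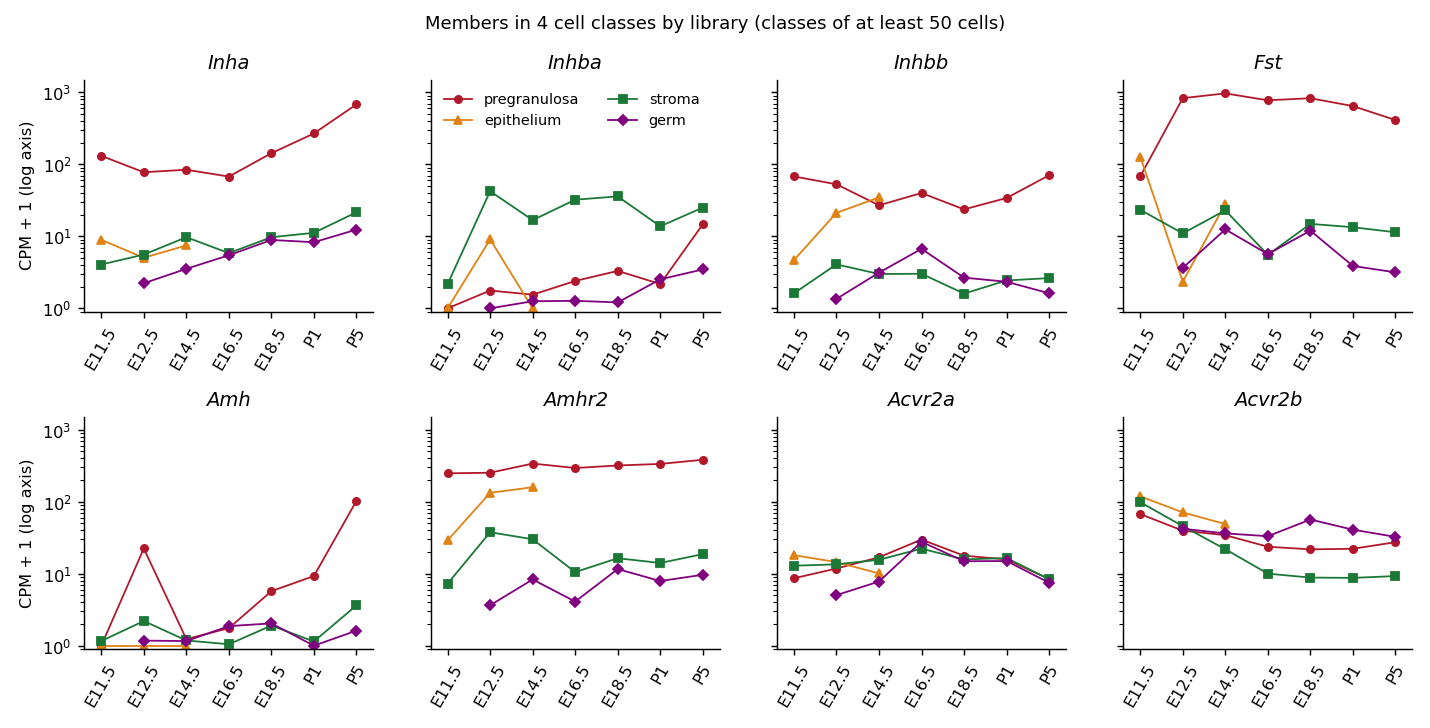
Level of each gene (CPM with 1 added, log axis) by library in pregranulosa, epithelium, stroma and germ cells, for classes of at least 50 cells; the points are summed UMIs of a class in 1 library. Epithelium is drawn from E11.5 to E14.5 only, so later libraries do not compare it. Among the classes drawn, Inha, Fst and Amhr2 sit highest in pregranulosa cells from E12.5 on. So does Inhbb except at E14.5, where epithelium is at 33.7 CPM, and Inhba sits highest in stroma.

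Inha, the subunit that makes a dimer an inhibin, was 130.5 CPM (interval 114 to 149) in the pregranulosa cells of E11.5. In the later libraries, E12.5 to P5, it was 76.7, 83.3, 66.7, 142, 268 and 681 CPM, with an interval of 667 to 695 at P5. The intervals of E12.5 and E14.5 overlapped, as did those of E11.5 and E18.5. The other neighbours in the order of level did not overlap. The ratio of E12.5 to E14.5 was 0.920 (0.850 to 0.996). In the E11.5 cells with Xist and no Y-linked UMI Inha was 101 CPM (81.7 to 124). In stroma Inha stayed between 4.58 and 20.6 CPM from E12.5 on and in germ cells between 1.23 and 11.4 CPM. The ratio of pregranulosa to stroma was 16.7 (12.9 to 22.0) at E12.5, 9.54 (7.17 to 13.0) at E14.5 and 33.1 (28.4 to 38.9) at P5. Its mean log2 over the 6 libraries was 3.98 ± 0.69 (SD over ages, n = 6).

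The P5 level of Inha exceeded that of P1 only on the Gng13-low side. In Gng13-low cells Inha was 76.4, 94.1, 83.0, 162, 260.2 and 749 CPM from E12.5 to P5, and in Gng13-high cells 75.0, 77.6, 49.3, 126, 286 and 236 CPM. Both sides stood above their E12.5 level at P5, by 9.80-fold (8.93 to 10.8) and 3.14-fold (2.69 to 3.67). From P1 to P5 the Gng13-low level was 2.88-fold higher (2.74 to 3.03), whereas the Gng13-high level was 1.21-fold lower (1.06 to 1.38). At P5 a Gng13-low cell had an Inha UMI in 79.6% of cases and a Gng13-high cell in 62.0%. The shares were 54.2 and 29.6% after thinning cells to 2000 UMIs, with cells of fewer UMIs left out. The ratio of the sides was 1.02 (0.884 to 1.17) at E12.5, or 0.897 (0.774 to 1.04) without the Y-positive cells. From E14.5 to E18.5 the ratio was between 1.21 and 1.68. It was 0.911 (0.840 to 0.988) at P1 and 3.18 (2.84 to 3.57) at P5. The mean log2 ratio was 0.49 ± 0.65 (SD, n = 6) and 0.25 without the P5 library.

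**Figure D2:**
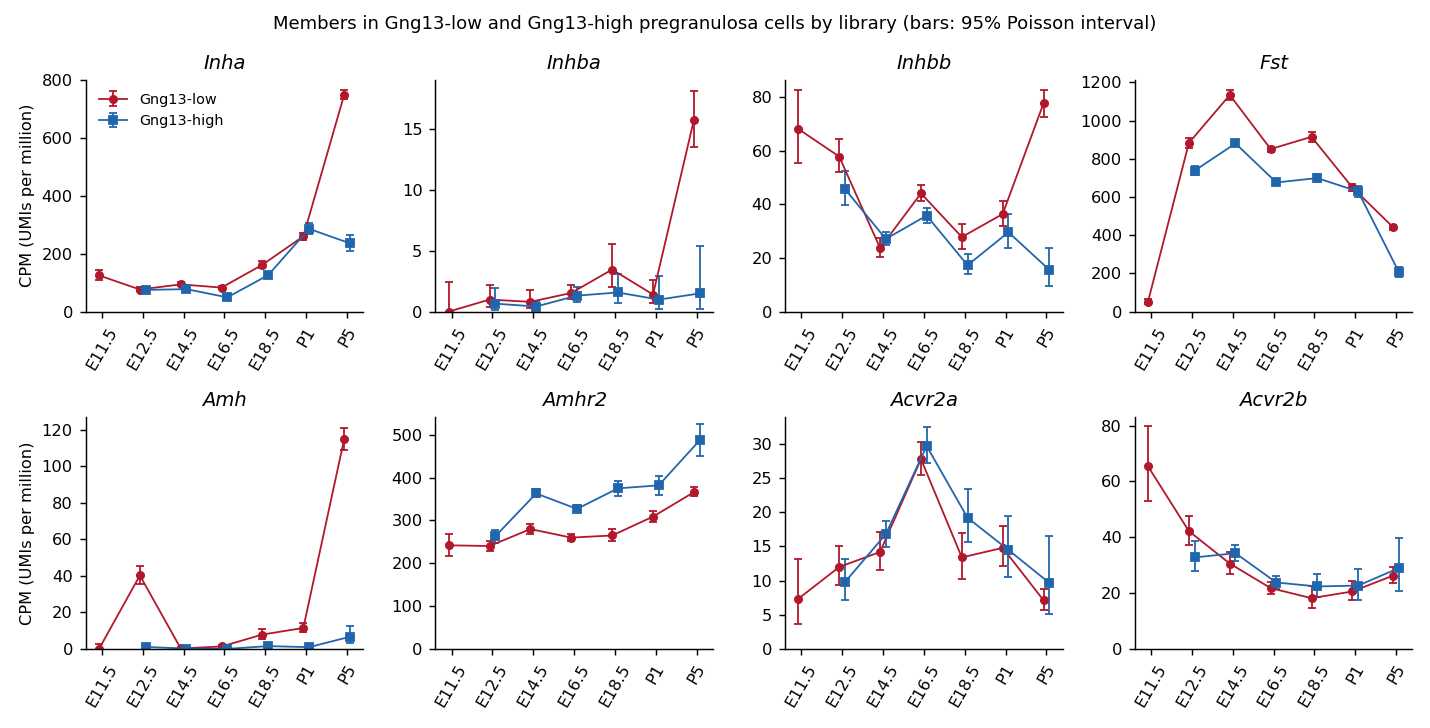
Level of each gene (CPM, linear axes from 0, a different range in each panel) in Gng13-low (circles) and Gng13-high (squares) pregranulosa cells by library, with 95% Poisson intervals; Gng13-high cells of E11.5 are not drawn because there were 7. Inha, Inhba, Inhbb and Amh are far higher in the Gng13-low cells at P5, and Amhr2 is higher in the Gng13-high cells from E12.5 on; the Amh point of E12.5 falls to 2.78 CPM in Gng13-low cells without a Y-linked UMI.

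Inhba, which encodes the subunit of activin A, was low in pregranulosa cells before P5, with 9 to 52 UMIs in a library from E12.5 to P1. No UMI was read at E11.5, which allows up to 1.76 CPM (3 counts), and the level was 0.767, 0.548, 1.40, 2.31 and 1.18 CPM from E12.5 to P1. At P5 it was 13.7 CPM (11.8 to 15.8), 17.9-fold (9.22 to 39.7) above E12.5. Of its 192 UMIs, Gng13-low cells held 187, at 15.7 CPM (13.5 to 18.1), and Gng13-high cells 2, at 1.49 CPM (0.180 to 5.37). The P5 ratio of 10.5 therefore had a wide interval of 2.87 to 87.6, and the intervals of the other 5 libraries included 1. The mean log2 ratio was 0.76 ± 1.00 and 0.36 without P5.

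Inhba was higher in stroma. From E11.5 to P5 its level there was 1.17, 41.4, 15.8, 31.3, 34.9, 12.8 and 24.1 CPM. E12.5 was 35.3-fold above E11.5 (27.0 to 47.1), and from there on the level went up and down. The intervals of E18.5 overlapped those of E12.5 and E16.5, and those of E14.5 and P1 overlapped. Stroma exceeded pregranulosa cells by 54.0-fold (28.2 to 119) at E12.5, by 28.9, 22.4, 15.1 and 10.8-fold in the next 4 libraries and by 1.76-fold (1.43 to 2.16) at P5, with a mean log2 ratio of pregranulosa to stroma of -3.11 ± 1.30. Germ cells stayed at or below 2.47 CPM.

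Inhbb, the subunit of activin B, was 67.0 CPM (55.3 to 80.5) in pregranulosa cells at E11.5. It was 51.9, 26.0, 39.0, 22.7, 33.1 and 69.6 CPM from E12.5 to P5, with an interval of 65.3 to 74.1 at P5. Over all cells of the gate the highest levels were thus at both ends. In the E11.5 cells with Xist and no Y-linked UMI, however, Inhbb was 48.4 CPM (35.3 to 64.7). In the E12.5 cells without a Y-linked UMI it was 48.6 CPM (44.7 to 52.9). Over all cells the interval of E11.5 overlapped those of P5 and E12.5, though the ratio of E12.5 to E11.5 was 0.774 (0.633 to 0.954). The intervals of E14.5 and E18.5 overlapped. Stroma held 0.602 to 3.08 CPM and germ cells 0.352 to 5.71 CPM from E12.5 on. Epithelium went from 3.67 CPM at E11.5 through 20.2 to 33.7 CPM (22.0 to 49.5) at E14.5, where it overlapped the pregranulosa interval. With cells passing other gates kept, Upk3b cells had 45.4 CPM (41.3 to 49.7) at E16.5 and 40.4 CPM (30.0 to 53.2) at E18.5, above the pregranulosa cells. They had 28.0 and 10.1 CPM at P1 and P5, below them. The mean log2 ratio of pregranulosa to stroma was 3.84 ± 0.51.

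Between the pregranulosa sides Inhbb differed by 0.872 to 1.61-fold from E12.5 to P1. The E12.5 ratio was 1.27 (1.06 to 1.51), or 1.15 (0.958 to 1.38) without the Y-positive cells. At P5 Inhbb was 77.7 CPM (72.7 to 82.8) in Gng13-low and 15.6 CPM (9.67 to 23.9) in Gng13-high cells, a ratio of 4.97 (3.23 to 8.07). From E12.5 to P5 Gng13-low cells were 1.34-fold higher (1.19 to 1.52) and Gng13-high cells 2.92-fold lower (1.86 to 4.82), so the sides went opposite ways. The mean log2 ratio of the sides was 0.60 ± 0.85 and 0.28 without P5. The level summed over all pregranulosa cells was 1.34-fold higher (1.21 to 1.49) at P5 than at E12.5. The log2 ratio, 0.42, became -0.13 when cells were first thinned to 5000 UMIs. Thinning dropped cells with fewer UMIs and came before all gates, that for Sox9 included. It left 1038 of the 1531 pregranulosa cells of P5, so its effect is not one of depth alone.

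Fst, the gene for the protein that sequesters activin, was low at E11.5 and high one library later. In cells of the pregranulosa gate it was 67.0 CPM (55.3 to 80.5) at E11.5 and 831 CPM (814 to 847) at E12.5, a 12.4-fold difference (10.3 to 15.1). Fst was 58.1 CPM (43.6 to 75.8) in the E11.5 cells with Xist and no Y-linked UMI. From E14.5 to P5 it was 968, 776, 829, 645 and 412 CPM, with an interval of 401 to 423 at P5. E12.5 and E18.5 overlapped, and the other neighbours in level did not. From E12.5 on stroma held 4.53 to 22.0 CPM and germ cells a median of 3.78 CPM over 6 libraries, and the ratio of pregranulosa to stroma was 39.6 to 171 with a mean log2 of 5.89 ± 0.71. The epithelium of E11.5 stood at 127 CPM (110.4 to 146), above the pregranulosa cells of that library, and at 1.35 CPM (0.0341 to 7.50) at E12.5. With cells passing other gates kept, Upk3b cells had 55.7 CPM (50.7 to 61.0) at E11.5 and 8.26 CPM (6.30 to 10.6) at E12.5. The place of epithelium above pregranulosa cells at E11.5 thus depended on the gate, as did the size of its step to E12.5.

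In Gng13-low cells Fst was 883, 1134, 851, 915, 649.8 and 441 CPM from E12.5 to P5, and in Gng13-high cells 738, 880.3, 676, 699, 629 and 206 CPM. The ratio was at most 1.31 from E12.5 to E18.5, with all 4 intervals above 1, 1.03 (0.979 to 1.09) at P1 and 2.14 (1.90 to 2.42) at P5. From P1 to P5 the level was 1.47-fold lower in Gng13-low and 3.05-fold lower (2.69 to 3.48) in Gng13-high cells. The mean log2 ratio was 0.41 ± 0.36 and 0.28 without P5.

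Because Inha and Fst went opposite ways after E18.5 over all pregranulosa cells, their UMIs were set against each other. UMIs count molecules by one end and need no length correction, but genes can differ in capture, so only the change over libraries is read. There were 1.95 Inha UMIs per Fst UMI in E11.5 pregranulosa cells. From E12.5 to P5 there were 0.0923, 0.0860, 0.0860, 0.171, 0.416 and 1.65 (1.60 to 1.71 at P5). By side, the P5 value was 1.70 (1.64 to 1.76) in Gng13-low and 1.14 (0.971 to 1.35) in Gng13-high cells. In the Gng13-high cells both genes were lower at P5 than at P1. Inha UMIs per Inhbb UMI were 1.95, 1.48, 3.20, 1.71, 6.27, 8.09 and 9.79 from E11.5 to P5, with an interval of 9.16 to 10.5 at P5.

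**Figure D3:**
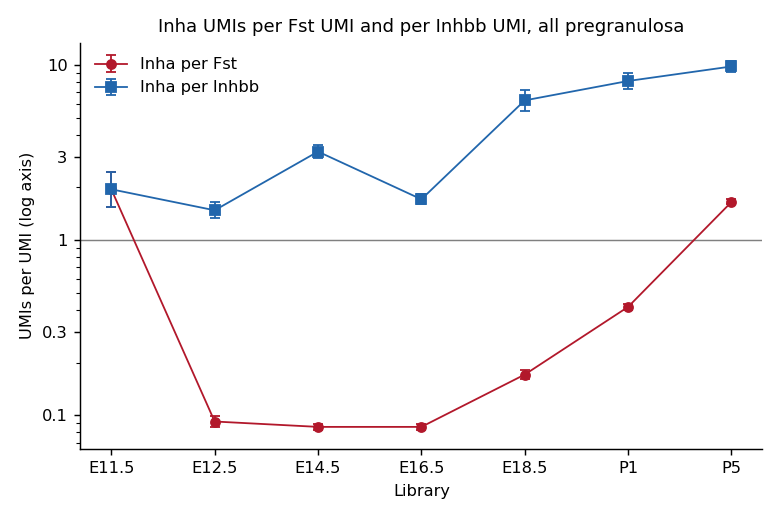
Inha UMIs per Fst UMI (circles) and per Inhbb UMI (squares) in all pregranulosa cells of each library, on a log axis with 95% intervals and a line at 1. The Fst ratio falls from 1.95 at E11.5 to 0.0860 at E14.5 and E16.5 and stands at 1.65 at P5, while the Inhbb ratio is highest at P5.

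Amh was read at 0 UMIs in the pregranulosa cells of E11.5, which allows up to 1.76 CPM. It was 21.4 CPM at E12.5, or 1.93 CPM in the cells without a Y-linked UMI. From E14.5 to P5 it was 0.235, 0.751, 4.72, 8.29 and 102 CPM, with an interval of 97.2 to 108 at P5. P5 was 12.4-fold above P1 (9.99 to 15.4) and 4.79-fold above E12.5 (4.19 to 5.50), or 52.9-fold (34.8 to 84.7) without the Y-positive cells. Without them the log2 difference from E12.5 to P5 was 5.14 in place of 2.21. The share of pregranulosa cells with an Amh UMI was 5.41% at P1 and 28.6% at P5 (11.6% at P5 when thinned to 2000 UMIs), and it was 0.110 and 1.49% in stroma, whose median depth was lower, 7143 and 6055 UMIs against 8012 and 8318. Germ cells were at or below 1.04 CPM, as was epithelium at E11.5, E12.5 and E14.5, the only libraries where it was used. With cells passing other gates kept, Upk3b cells of P5 had 1.40 CPM (0.453 to 3.26). Pregranulosa cells exceeded stroma by 17.8-fold (10.7 to 31.6) at E12.5, but with the Y-positive cells left out of both classes the levels were 1.93 and 1.28 CPM, a ratio of 1.51 whose interval of 0.750 to 3.13 included no difference. The ratio was 1.29 (0.157 to 59.4) at E14.5 and 38.9 (25.3 to 63.0) at P5. Over 6 libraries the mean log2 was 2.27 ± 1.79, and 1.77 without the Y-positive cells of E12.5.

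Apart from the Y-positive cells, Amh was low on both pregranulosa sides until P1. Gng13-low cells had 40.3 CPM at E12.5 (2.78 without a Y-linked UMI) and 0.267, 1.36 and 7.91 CPM in the next 3 libraries. They had 82 UMIs at P1, an interval of 9.13 to 14.3 CPM, and 115 CPM (109 to 121) at P5. Gng13-high cells had 1.09, 0.239, 0.0597, 1.57, 0.985 and 6.69 CPM (3.06 to 12.7 at P5), from 1 to 9 UMIs in a library. The ratio of the sides was 37.1 (15.7 to 115) at E12.5, 2.53 (0.885 to 8.83) there without the Y-positive cells, and 1.12 (0.101 to 7.79) in the E14.5 library. From E16.5 on it was 22.9, 5.04, 11.7 and 17.2, with lower bounds of 3.74, 2.32, 3.85 and 9.02. The E16.5 ratio rests on 25 against 1 UMIs. In that library 0.296% of pregranulosa cells had a Y-linked UMI, and their part in its Amh UMIs was not tested. The mean log2 ratio was 2.31 ± 1.64, and 1.73 without the Y-positive cells of E12.5.

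Amhr2, the receptor gene, was already high when its ligand was not read. In pregranulosa cells it was 247, 252, 338, 293, 318, 334 and 382 CPM from E11.5 to P5, with intervals of 224 to 272 and 371 to 392 at the ends. The range over 7 libraries was narrow beside that of Amh. The intervals of E11.5 and E12.5 overlapped, and that of P1 overlapped those of E14.5 and E18.5. By sex-linked UMIs the first 2 libraries did differ. Amhr2 was 181 CPM (154 to 210.1) in the E11.5 cells with Xist and no Y-linked UMI. It was 254 CPM (244 to 263) in the E12.5 cells without a Y-linked UMI. Stroma held 6.27 to 36.7 CPM, highest at E12.5, and germ cells 2.64 to 10.6 CPM. The ratio of pregranulosa to stroma was 6.88 (6.25 to 7.59) at E12.5 and 11.6 to 30.7 later, with a mean log2 of 4.04 ± 0.77. In the libraries where it was used, epithelium stood between, from 28.1 CPM (20.6 to 37.5) at E11.5 through 132 to 158 CPM (132 to 189) at E14.5. When cells passing other gates were kept, the Upk3b cells had 29.9, 138, 229, 245, 350.3, 272 and 406 CPM from E11.5 to P5. Their level was above that of pregranulosa cells at E18.5 (318 to 385, against 318 CPM) and P5 (385 to 427, against 382 CPM). In the other libraries it was below. Such cells overlap the pregranulosa gate, since its genes Kitl and Wnt6 were 15.4 and 17.4 CPM in them at E11.5, 614 and 274 CPM at E16.5 and 106 and 281 CPM at P5.

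Amhr2 was the 1 member with more RNA in the Gng13-high cells in all 6 libraries. Gng13-low cells had 240.4, 279.9, 260.0, 265, 309 and 366 CPM from E12.5 to P5, and Gng13-high cells 263, 363, 327, 375, 382 and 487 CPM. Every interval of the ratio lay below 1, from 0.914 (0.847 to 0.987) at E12.5 to 0.707 (0.658 to 0.759) at E18.5 and 0.752 (0.693 to 0.818) at P5. The difference was small and steady, with a mean log2 of -0.34 ± 0.12 (SD, n = 6), and it did not reach 2-fold in any library. Ligand and receptor were thus higher on opposite sides at P5.

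**Figure D4:**
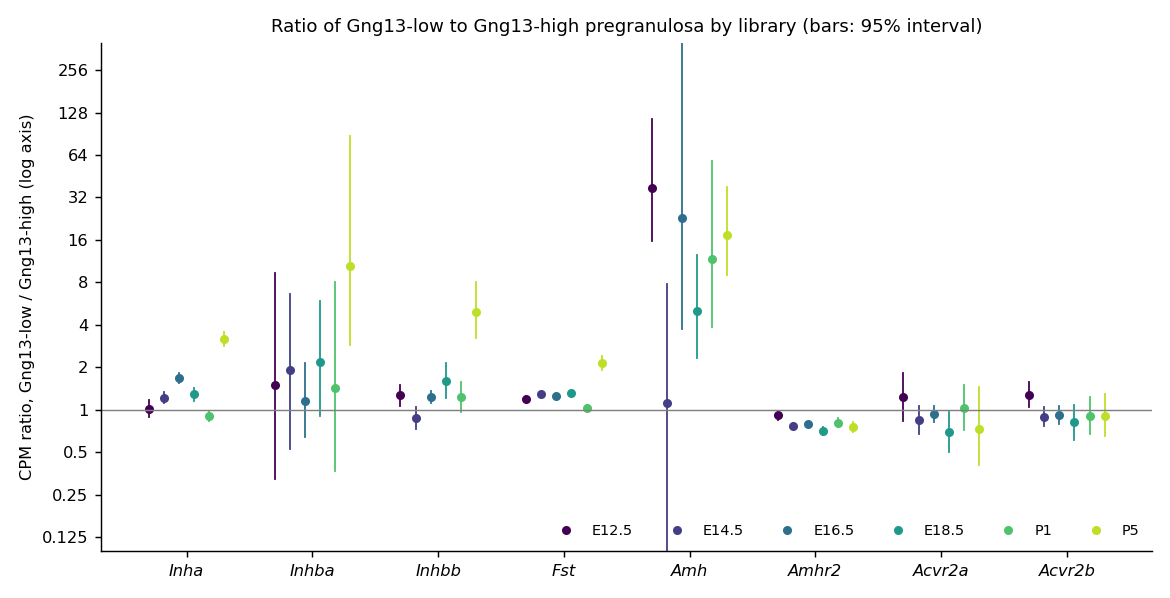
Ratio of CPM in Gng13-low over Gng13-high pregranulosa cells (log axis) for each gene, 1 point per library from E12.5 to P5 with the 95% interval. The Amh interval of E16.5 (3.74 to 938) runs past the axis. Inha, Inhba, Inhbb and Fst lie furthest from 1 at P5. By interval, Fst and Amh lie above 1 in 5 libraries, Inhbb in 4 and Inhba in 1, Inha lies above in 4 and below in 1, and Amhr2 lies below in all 6. Without the Y-positive cells the E12.5 ratio of Amh, 37.1, becomes 2.53 and that of Inhbb, 1.27, becomes 1.15, and both intervals include 1.

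Acvr2a, one of the activin type II receptors, differed little between pregranulosa cells and stroma. In pregranulosa cells it was 7.64, 10.8, 15.9, 28.8, 16.8, 14.8 and 7.42 CPM from E11.5 to P5, highest at E16.5. Stroma went through nearly the same values, from 11.9 CPM at E11.5 to 21.3 at E16.5 and 7.40 at P5, and germ cells had 4.04 CPM at E12.5, 26.7 CPM (24.4 to 29.2) at E16.5 and 6.49 CPM at P5. Pregranulosa cells exceeded germ cells by 2.67-fold (1.71 to 4.37) at E12.5 and by 2.35-fold (1.99 to 2.79) in the E14.5 library, and later intervals included no difference. The ratio of pregranulosa to stroma was 0.862 to 1.35 from E12.5 on, with an interval that excluded 1 only at E16.5 (1.21 to 1.51), and a mean log2 of 0.08 ± 0.22. Between the pregranulosa sides the ratio was 0.696 to 1.23, with an interval below 1 only at E18.5 (0.501 to 0.960). At these levels, with 13 to 1075 UMIs in a library, the intervals of the side ratio at P5 (0.408 to 1.44) allow differences of up to 2.45-fold.

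Acvr2b, the other activin type II receptor, was lower at later ages in the somatic classes. In pregranulosa cells it was 66.4 CPM (54.7 to 79.8) at E11.5 and 38.6, 33.3, 22.7, 20.8, 21.2 and 26.4 CPM from E12.5 to P5. The intervals of E12.5 and E14.5 overlapped, as did those of E16.5, E18.5 and P1. That of P5 (23.8 to 29.2) overlapped those of E16.5 and P1. Yet the ratio of E14.5 to E12.5 was 0.863 (0.769 to 0.969), and that of P5 to P1 was 1.24 (1.05 to 1.47). In stroma Acvr2b was 97.5, 44.8, 20.9, 9.02, 7.83, 7.75 and 8.27 CPM, 5.41-fold lower (4.19 to 7.09) at P5 than at E12.5. The ratio of pregranulosa to stroma was 0.681 at E11.5, 0.862 (0.761 to 0.975) at E12.5 and, the other way, 1.59 (1.31 to 1.95) at E14.5. It was 2.51, 2.66, 2.74 and 3.19 in the later libraries, with an interval of 2.45 to 4.21 at P5. Its mean log2 was 0.98 ± 0.66. Between the pregranulosa sides it was 1.28 (1.05 to 1.58) at E12.5 and 0.816 to 0.916 later, with a mean log2 of -0.08 ± 0.22.

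Germ cells carried both activin receptor genes but little of the other members. Acvr2b was 41.1, 35.3, 32.2, 55.6, 39.9 and 31.5 CPM there from E12.5 to P5, highest at E18.5 (49.1 to 62.7). Germ cells exceeded pregranulosa cells by 1.42-fold (1.28 to 1.58) at E16.5, 2.67-fold (2.23 to 3.20) in the E18.5 library and 1.88-fold (1.55 to 2.28) at P1, and the intervals at E12.5, E14.5 and P5 included no difference. In the same cells Inha, Inhba, Inhbb, Fst, Amh and Amhr2 had medians of 0.263 to 7.11 CPM over the 6 libraries. Epithelium had 118 CPM of Acvr2b (102 to 136) in the E11.5 library, then 70.0 and 48.0 CPM.

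Set beside all genes, most members were past 2-fold between the sides at P5 and few in earlier libraries. At E12.5, 1 of 7 members with a mean of at least 5 CPM was past 2-fold (Amh, resting on the Y-positive cells), where 2.79% of all genes were. In the next 3 libraries it was 0 of 6 each time, Inhba and Amh being too low to be tested, against 3.35, 5.63 and 6.24% of all genes. At P1 it was 1 of 7 (Amh), against 7.67%. At P5 it was 5 of 8 (Inha, Inhba, Inhbb, Fst and Amh, all higher in Gng13-low cells), against 9.84%, and the median log2 ratio of the members was 1.38, against 0.02 for all genes. The P5 Gng13-high group had 142 cells. From E12.5 to P5, over all pregranulosa cells, 3 of 8 were at least 2-fold higher (Inha 8.89-fold, Inhba and Amh), against 8.59% of all genes. The 1 member at least 2-fold lower was Fst, by 2.02-fold (1.95 to 2.08), against 5.94% of all genes. With the Sox9 cells of E12.5 kept, the log2 values were -0.88 for Fst and 0.03 for Amh, neither past 2-fold. Amhr2 was 1.51-fold higher, and Acvr2a and Acvr2b were each 1.46-fold lower.

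At P5 the pregranulosa cells were grouped by their Amh UMIs, to see which members went with it. There were 166 cells with at least 3 Amh UMIs, 161 of them Gng13-low and 0 Gng13-high, 272 cells with 1 or 2, and 1093 with none. Cells with more Amh UMIs were deeper, with medians of 11581, 9240.5 and 7841 UMIs, and the part of depth in the differences was not tested. Inha was 1586 CPM (1532 to 1641) in the first group, 978 in the second and 387 CPM (375 to 400.3) in the third. Inhbb was 177, 89.7 and 39.3 CPM and Inhba 36.0, 15.3 and 8.16 CPM, so all 3 subunit genes were ordered as Amh was. Fst was 528, 461 and 371 CPM, a smaller step. Amhr2 was 349, 401 and 383 CPM, Acvr2a 7.20, 8.02 and 7.29 CPM and Acvr2b 25.5, 28.4 and 26.0 CPM, with overlapping intervals for both activin receptors and, for Amhr2, 324 to 375 in the first group and 377 to 425 in the second.

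Other genes told the groups apart as well. The division gene Top2a was 233, 72.9 and 25.2 CPM and the nuclear receptor genes Nr5a2 and Esr2 were 147, 121 and 48.5 CPM and 86.9, 81.0 and 41.6 CPM. Lgr5 was 0.961, 4.38 and 24.2 CPM, and Foxl2 lay at 353, 368 and 378 CPM. Fstl1, a secreted follistatin-like protein gene, went against Amh at 44.7, 93.4 and 115 CPM. At P1, 65 cells had 1 or 2 Amh UMIs, and Inha was 499.6 CPM (446 to 558) in them against 250.3 CPM (241 to 260.1) in the 1224 cells without. Inhbb was 50.3 against 31.6 CPM there, with intervals of 34.4 to 71.0 and 28.3 to 35.2 that overlapped.

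**Figure D5:**
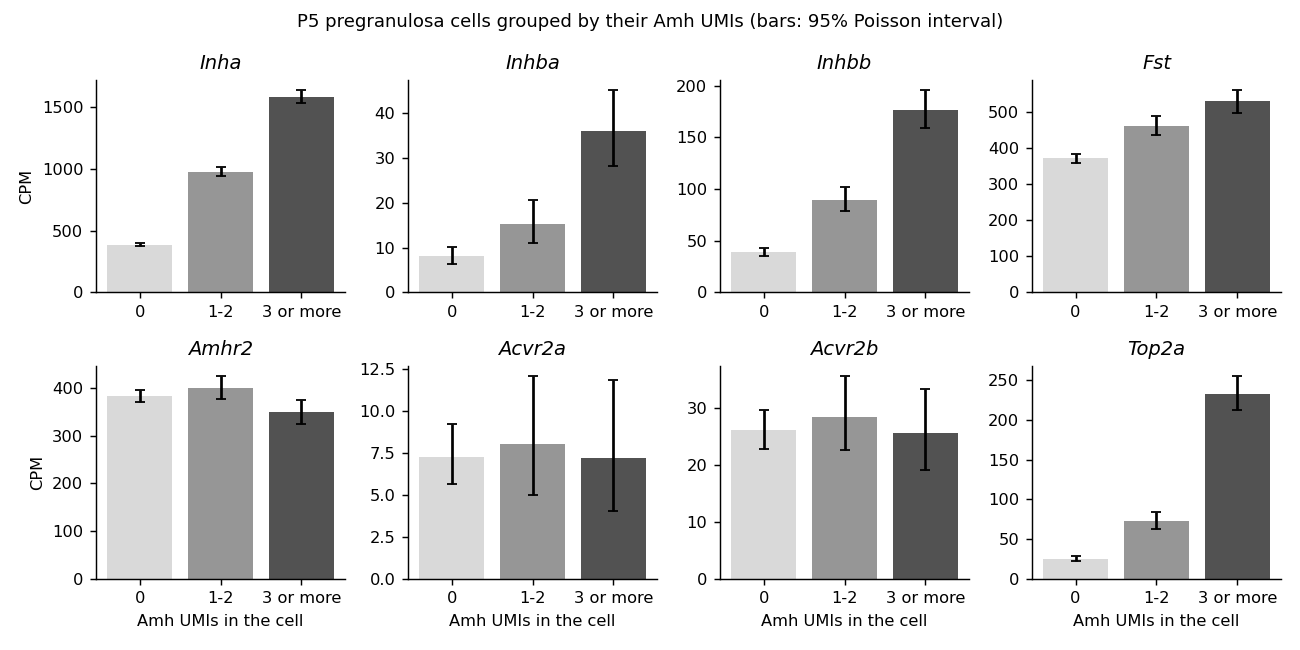
P5 pregranulosa cells grouped by Amh UMIs per cell (0, 1 or 2, 3 or more: 1093, 272 and 166 cells), with CPM as bars from 0 and 95% Poisson intervals; Top2a is a cell division gene for comparison. The 3 subunit genes and Top2a are ordered as Amh is, and Amhr2 lies between 349 and 401 CPM in all 3 groups.

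The E11.5 gonads allowed a look at both sexes, since 28.4% of all cells there had a Y-linked UMI. Of the pregranulosa gate, 56 cells had a Y-linked UMI and no Xist, and 80 had Xist and no Y-linked UMI. Inha was 177 CPM (144 to 215) in the first and 101 CPM (81.7 to 124) in the second, Amhr2 327 (281 to 377) against 181 CPM (154 to 210.1), and Fst 104 (78.6 to 134) against 58.1 CPM (43.6 to 75.8). The Fst UMIs came from 15 of the 56 and 12 of the 80 cells, and the intervals do not cover differences between cells. Inhbb was 85.7 against 48.4 CPM, with intervals of 63.2 to 114 and 35.3 to 64.7. Sox9 was 271 against 39.8 CPM. Amh was at 0 UMIs in both, which allows up to 5.35 and 3.23 CPM. Acvr2b was 53.5 against 75.3 CPM with overlapping intervals.

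The other genes of the pathway were 23 in number: receptors, co-receptors, SMADs, binding proteins, the subunits Inhbc and Inhbe and the processing enzyme Furin. Between the sides, 0 of 15 tested were past 2-fold at E12.5. In the next 4 libraries it was 2 of 16, 2 of 18, 1 of 15 and 2 of 14, and at P5 4 of 14 (Tgfbr3, Smad1 and Bambi higher in Gng13-low cells, Fstl3 lower), against the same shares of all genes as for the members. Smad3, the activin signal transducer, was higher in Gng13-low cells in all 6 libraries and past 2-fold in 4. It was 90.0 against 25.6 CPM at E16.5 and 148 against 97.4 CPM at P5, and its mean log2 ratio was 1.06 ± 0.48. Over all pregranulosa cells it was 19.1 CPM at E12.5 and 143 CPM at P5, 7.48-fold higher (6.52 to 8.63), against 24.3 and 18.4 CPM in stroma. Tgfbr3, the inhibin co-receptor, was also higher on the Gng13-low side in 6 of 6 (mean log2 0.91 ± 0.29), at 15.2 against 6.69 CPM at P5, but it was 2.01 to 4.17-fold higher in stroma than in pregranulosa cells. Fstl3, a follistatin relative, went the other way, with 2.43 CPM in Gng13-low and 12.6 CPM in Gng13-high cells at P5 and a mean log2 of -1.17 ± 0.71 at low levels.

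Against stroma, 0 of 15 of the other genes were at least 2-fold higher in pregranulosa cells in all 6 libraries, where 4.99% of all genes were, and 1 was lower, where 5.31% were. That was Fstl1, at 85.5 against 248 CPM at E12.5 and 100.2 against 439 CPM at P5. Acvr1, a type I receptor, was 1.74 to 3.80-fold lower in pregranulosa cells than in stroma. From E12.5 to P5, 2 of 14 were at least 2-fold higher, Smad3 and the type I receptor Bmpr1b (3.32 and 11.6 CPM, 3.48-fold), against 8.59% of all genes. In the other direction 1 of 14 was at least 2-fold lower, against 5.94%. This was Smad7, the inhibitory SMAD, at 106 and 21.3 CPM, 4.99-fold lower in pregranulosa cells and 2.52-fold lower in stroma.

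Finally, the genes whose pattern was most like each member were found over 29 profiles of class and library, by Pearson's r of log2(CPM + 10) among 10723 genes. The profiles share libraries and cells of related classes, so r is a description. For Inha they were Wfdc10 (0.97), Dmrta1 and Susd3 (0.95), Gstm1 (0.93) and Mro (0.92). For Inhba they were Foxs1, Mrvi1, Cyp1b1, Pmepa1 and Col6a3 (0.88 each), all with their highest level in stroma. For Inhbb they were Cntnap5a (0.92), Prkcd (0.91), Srxn1 (0.90), Amhr2 and Sh2d4a (0.89), and for Fst they included Asl (0.94), Clcn2 (0.93), Irx3 and Gprc5b (0.92). For Amh they were Hsd17b1 (0.88), Tmem215 (0.84), Ly6g6e (0.83), Cnmd and Slc18a2 (0.80), all with their highest level in Gng13-low cells of P5. The E12.5 Gng13-low profile included the Y-positive cells, so its Amh was 40.3 CPM, against 2.78 CPM without them. Likeness to Amh without these cells was not tested. For Amhr2 the genes most alike were Gm45051 and Sh2d4a (0.97), Cgn (0.96), Epn3 and Oplah (0.95). For Acvr2a they included Atf2, Med13, Zcchc6 and Lats1 (0.81), and for Acvr2b Mrpl12 (0.89), Ap3s2 (0.88), Mpped2 (0.87), Prpf31 (0.86) and Slc9a3r1 (0.84). Among the members, r was 0.89 for Inhbb with Amhr2, 0.86 for Fst with Amhr2 and 0.82 for Inha with Fst, and it was -0.36 for Inhba with Fst and -0.52 for Inhba with Acvr2b.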

How the data were processed

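Single-cell RNA was measured in 7 libraries, 1 per age. The authors used Cell Ranger 3.1.0 with mm10 on 10x v2 libraries and deposited raw UMI counts for each gene in each cell.

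Cells with at least 200 genes were kept. UMIs of the cells of a class were summed in each library and divided by all UMIs of those cells, as CPM. Intervals are exact (Poisson, binomial, or for a ratio conditional on the sum of UMIs) and cover counting error only. A mean log2 ratio uses CPM + 1, and its SD runs over ages. With 1 library per age no p-value was computed. A gene was called past 2-fold, among genes with a mean of at least 5 CPM over the groups compared. No doublet caller was run, and cells passing several gates were left out.

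The members and lists were chosen with earlier results of these data known. Of the other pathway genes, those past 2-fold in the same direction in at least 3 libraries between the sides, or past 2-fold (by the mean log2, against stroma) by class or age, were named. For likeness, the 5 genes with the highest r were named, among those reaching 20 CPM. A few of these are not reported here. Python 3.11.15, numpy 2.4.6, scipy 1.17.1, pandas 2.3.3, matplotlib 3.10.9, R 4.3.3 and edgeR 4.0.16 (TMM factors, as an alternative) were used. Positions were taken from GENCODE vM21.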

Additional observations from a re-analysis of the deposited data

Results flagged for a closer look

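The Inha ratio of Gng13-low to Gng13-high pregranulosa cells was 0.911 at P1, with an interval below 1, where 4 other libraries had intervals above 1. The Acvr2b ratio of pregranulosa cells to stroma was 0.862 at E12.5, with an interval below 1, where the 5 later libraries had intervals above 1. Neither difference between ages was tested, since each age is 1 library.

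Some signals lay outside the comparisons. Among immune cells (at least 3 Tyrobp and Fcer1g UMIs) of P1, Inhba was 94.9 CPM (83.5 to 107), above its level in pregranulosa cells and stroma of that library. It was read in 109 of 287 cells. Those 109 cells had 78030 CPM of the neutrophil gene S100a8, 2.34 CPM of Csf1r and no Cx3cr1 UMI, and a median of 11581 UMIs. The 178 immune cells without an Inhba UMI had 47051, 38.8 and 44.1 CPM of these genes and a median of 5307 UMIs. Immune cells of P5 had 9.60 CPM of Inhba. In the 190 cells of E12.5 left out for Sox9, Amh was 431 CPM, Inha 156 CPM and Inhbb 112 CPM, all above the pregranulosa cells kept.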

How the results depend on the processing

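Values here are log2 ratios of CPM with 1 added. The ratio of the pregranulosa sides moved by less than its SD over ages for all 8 genes in all 14 alternatives, 112 values. Dropping 1 of 6 libraries cannot move a mean by its SD, so the 48 such values do not test this. For Inha, Inhba, Inhbb, Acvr2a and Acvr2b the SD (0.65, 1.00, 0.85, 0.28 and 0.22) is larger than the size of the mean. For these genes a fall to no difference would also count as a move within the SD. Without P5 the ratio was 0.25 for Inha, 0.36 for Inhba, 0.28 for Inhbb and 0.28 for Fst, against 0.49, 0.76, 0.60 and 0.41. For Acvr2b its sign turned in 1 alternative, to 0.01, with at least 1000 genes and at most 10 percent mitochondrial UMIs per cell, which left 636 of the 3045 pregranulosa cells of E16.5. Against stroma, 99 of 104 values moved by less than the SD, which for Acvr2a is again larger than the mean (0.08 ± 0.22). The exceptions arose when cells passing another gate were kept (Inha 2.50, Inhbb 2.01, Fst 3.05 and Amhr2 2.21) and, for Inhbb, with 5 CPM added (2.66). Cells passing both gates, when kept, counted in both classes, which by itself pulls the ratio toward no difference. From E12.5 to P5, 84 of 104 values kept within the counting interval. Inha was 2.87 with the Sox9 cells kept, 2.89 with cells thinned to 5000 UMIs and 3.02 as a mean over cells, against 3.13. Amh, 2.21, was 0.03 with the Sox9 cells kept, 0.79 thinned, 1.93 as a mean over cells, 2.01 without the 5 percent of cells with most UMIs, 2.48 with cells passing another gate and 5.14 without Y-positive cells. Thinning left out cells with fewer than 5000 UMIs, and gates, the Sox9 gate included, were applied after it. For Inhbb this value was -0.13 when thinned, against 0.42, and no other value of this contrast changed sign. Fst ranged from -1.22 to -0.86.

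Leaving out Y-positive cells or a library was chosen after seeing the data. The sides, and pregranulosa cells and stroma, were compared within each library, so those ratios are already paired. Between ages no paired analysis was possible because each age has 1 library, and for the same reason there was no replicate to leave out. Depth limits Inhba in pregranulosa cells before P5, at 0 to 52 UMIs in a library, fetal Amh, at 6 to 51 UMIs from E14.5 to E18.5, and Acvr2a.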
